A study of Mus musculus with 40 samples.

Results

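The genes described here are 36 genes that copy DNA or open the way into S phase, of which 35 had a probe set of their own on the array, out of 17097 genes measured. They were chosen by name, with earlier results of these data known. Each gene was represented by the probe set that names it alone and has the highest mean over the 40 arrays. For Chaf1a none named it alone, and it was not analysed. By that mean all 35 lay above the background level of 4.46 on the log2 scale, which is the 95th percentile of the means of 81 probe sets for odour and pheromone receptors. Orc1 was the dimmest at 4.90, and in cultured cells it lay close to or under the background.

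RNA came from B16F10, a mouse melanoma line, either in culture or grown as tumours under the skin of C57black6J mice that were 8 weeks old when injected. OTX015 blocks the BET bromodomain proteins, which read acetylated histones, and guadecitabine blocks DNA methylation. The 6 groups were OTX015-treated cultures (4) and control cultures (4), tumours of mice given OTX015 by mouth (10) and their controls (11), and tumours of mice injected with guadecitabine (6) and their controls (5). The labels give no dose and no duration, name 1 cell line as the source of all samples, and do not say whether replicates were separate cultures or animals, so p-values measure the spread between these samples. Tumour samples are labelled as melanocyte cells, with no sort named: the mean of 10 melanocyte markers was 10.5 to 11.3 in all 40 arrays, and the mean of 13 macrophage and monocyte markers was 4.34 to 7.54 in tumours and 3.51 to 3.65 in cultures.

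Before S phase, the origin recognition complex, CDC6 and CDT1 load the MCM2-7 helicase onto DNA in an inactive form. Cyclin E and its kinase, working with E2F transcription factors, then help to start S phase, and MCM10, CDC45 and GINS activate the helicase. Polymerases, the PCNA clamp and its RFC loader copy the strands, while ribonucleotide reductase, thymidylate synthase and thymidine kinase supply the building blocks. Many of these genes carry E2F sites near their start and are transcribed most around the G1/S boundary.

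The 160 bases before the start that RefSeq's promoter table uses are shown for 6 of these genes. Apart from those of Tk1, they are shown because they hold an E2F word, a CCAAT word or both. Those of Tk1 hold neither in this stretch and belong to the member that fell most in OTX015-treated cells. The sequences are RefSeq's, on the mouse build GRCm38.p6, and run toward that start on the gene's own strand. For Cdc6, Orc1, Mcm5 and Tk1 that start lies inside the span annotated for the gene, so part or all of the stretch does too. Capitals mark an E2F word (TTTCCCGC, TTTGGCGC, TTTCGCGC or TTTGCCGC, on either strand) or a CCAAT word (on either strand, read as ATTGG on the other). Where a capital run is longer than 8 bases, E2F words on both strands overlap.
Cdc6, chr11:98907991-98908150, plus strand: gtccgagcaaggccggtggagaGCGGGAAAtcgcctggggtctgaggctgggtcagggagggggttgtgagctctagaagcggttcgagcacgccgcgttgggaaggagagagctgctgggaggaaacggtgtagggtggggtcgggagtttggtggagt
Mcm5, chr8:75109349-75109508, plus strand: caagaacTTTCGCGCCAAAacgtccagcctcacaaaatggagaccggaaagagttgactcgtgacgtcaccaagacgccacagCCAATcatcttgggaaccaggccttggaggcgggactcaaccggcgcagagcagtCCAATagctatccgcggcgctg
Mcm6, chr1:128359706-128359865, minus strand: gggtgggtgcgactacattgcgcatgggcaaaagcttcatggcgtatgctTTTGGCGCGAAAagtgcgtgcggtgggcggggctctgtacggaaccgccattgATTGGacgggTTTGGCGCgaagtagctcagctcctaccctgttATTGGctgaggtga
Orc1, chr4:108579294-108579453, plus strand: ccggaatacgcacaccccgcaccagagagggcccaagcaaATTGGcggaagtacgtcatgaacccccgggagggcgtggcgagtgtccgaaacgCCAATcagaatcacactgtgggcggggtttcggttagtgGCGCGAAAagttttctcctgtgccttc
Rrm2, chr12:24708094-24708253, plus strand: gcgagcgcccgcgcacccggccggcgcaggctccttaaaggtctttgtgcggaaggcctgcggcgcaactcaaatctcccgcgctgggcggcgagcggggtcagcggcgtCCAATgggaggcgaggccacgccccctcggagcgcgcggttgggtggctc
Tk1, chr11:117826015-117826174, minus strand: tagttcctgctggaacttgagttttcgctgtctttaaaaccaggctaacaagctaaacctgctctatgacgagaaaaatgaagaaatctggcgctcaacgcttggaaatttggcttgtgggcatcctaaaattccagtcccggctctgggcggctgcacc

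Over windows from 250 bases before to 50 after the start, 29 of the 35 measured members had a RefSeq sequence to search. An E2F word stood in 10 of the 29 (34.5%), against 3.79% of the 13605 measured genes with a window. A CCAAT word stood in 17 of the 29 (58.6%), against 42.3% of those genes. Of the members with a window that were higher in OTX015-treated cells, 5 of 16 held an E2F word and 12 of 16 a CCAAT word. Of those not called there, 5 of 10 held an E2F word and 4 of 10 a CCAAT word, and of the 3 that were lower, 0 held an E2F word and 1 a CCAAT word. These counts are a description of letters in a window, and a match is not a measured binding site.

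In culture, the replication genes were mostly higher with OTX015. Of the 35 members, 20 were higher and 3 lower in OTX015-treated than in control cells, and 12 were not called (limma, Benjamini-Hochberg adjusted p under 0.05 over 17097 genes). Over all genes, 38.8% were called, 17.0% higher and 21.8% lower. The median log2 change of the members was 0.33, against -0.0018 for all genes. All 4 treated arrays lay above all 4 control arrays for 19 members and below them for 4, where 16.7% and 21.1% of all genes did so. The plot of log2 changes by role shows called rises beside a called fall in some roles. These were the polymerase, primase and Okazaki genes, the clamp, loader and RPA genes, and the nucleotide supply genes. No licensing, MCM2-7 or helicase activation gene was called lower.

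**Figure D1:**
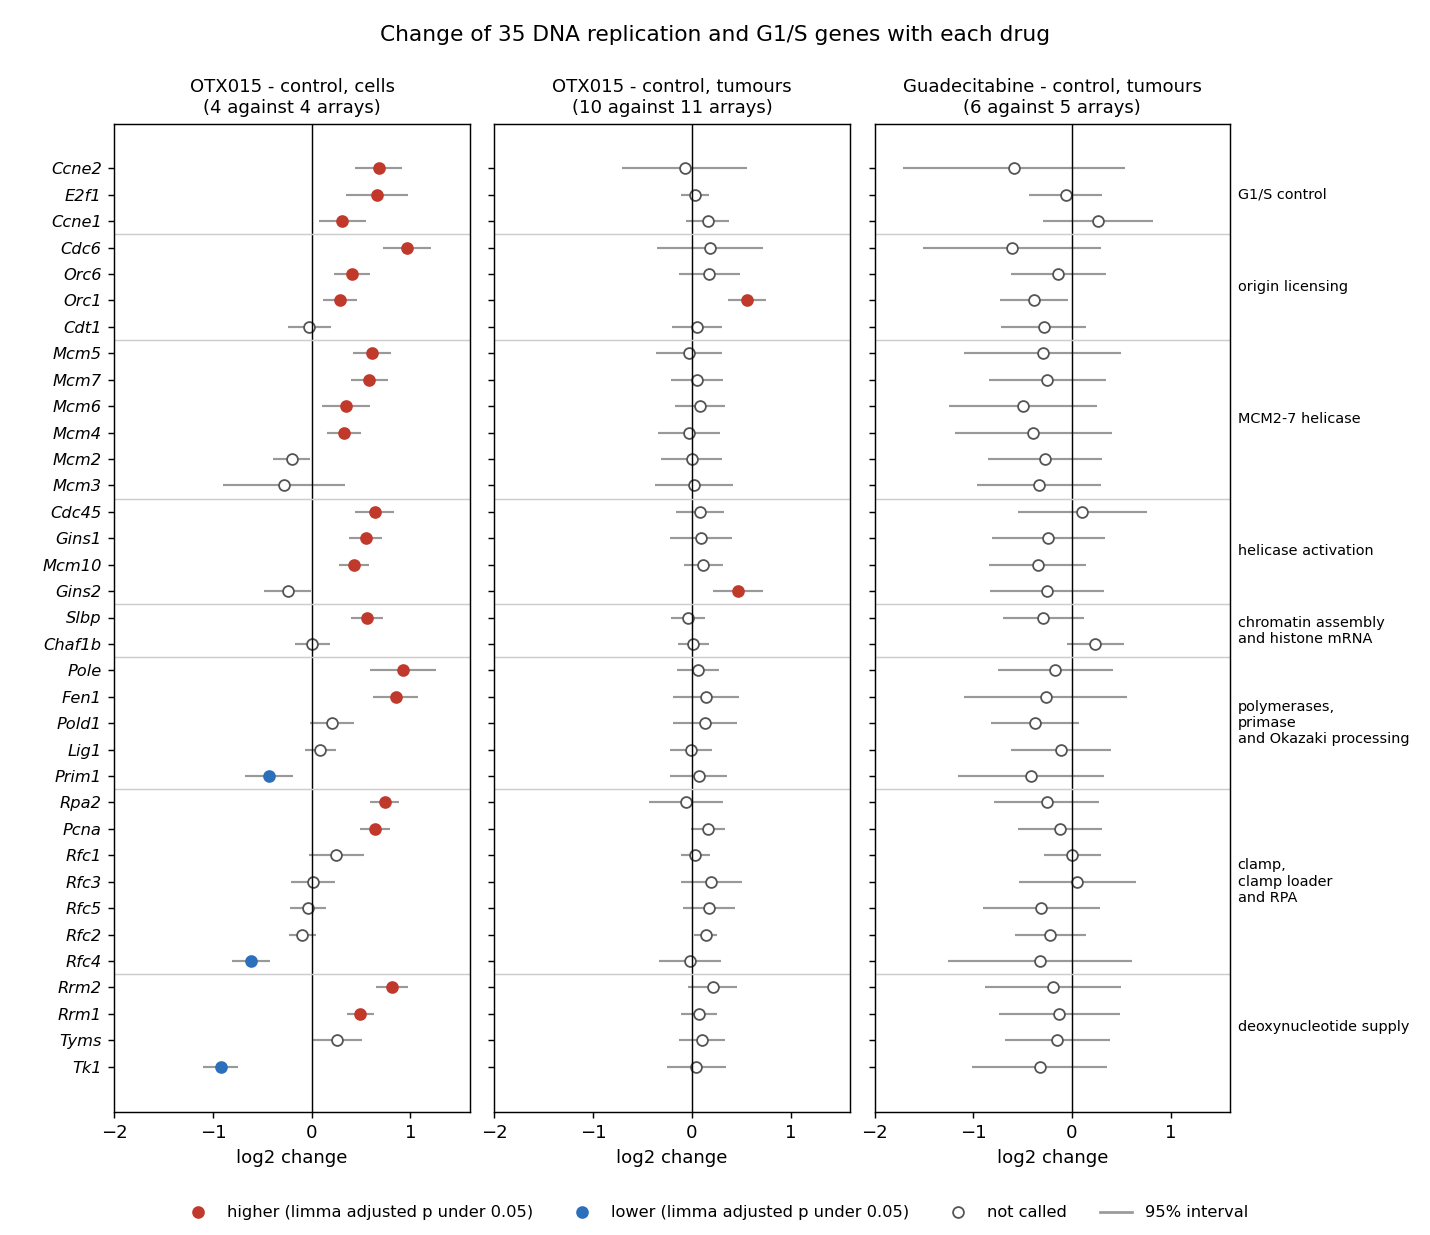
Log2 change (x axis, drug minus control) of the 35 members (rows, grouped by role) with OTX015 in cells, OTX015 in tumours and guadecitabine in tumours; filled points passed limma at adjusted p under 0.05 and bars are 95% intervals. In cells 20 members were higher and 3 lower, in OTX015-treated tumours 2 were higher, and with guadecitabine none was called.

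Of the 4 origin licensing genes 3 were called higher, as were both cyclin E genes. Cdc6, whose protein brings the MCM helicase to origins, measured 6.28, 6.45, 6.65 and 6.55 in OTX015-treated cells, against 5.45, 5.78, 5.29 and 5.57 in control cells. Every treated array was higher than every control array, and the log2 change of 0.96 (SE 0.11, limma adjusted p = 1.76e-05) was the largest rise among the members. Ccne2, which encodes a cyclin E that activates CDK2, measured 6.19, 6.10, 6.42 and 6.38 in treated cells, against 5.47, 5.37, 5.77 and 5.76 in control cells. The groups did not overlap, and the log2 change was 0.68 (SE 0.11, limma adjusted p = 0.000254). E2f1, which encodes a transcription factor of S-phase genes, rose by 0.66 and by 1.30 on its other, dimmer probe set. Ccne1, the other cyclin E gene, had a log2 change of 0.31 (limma adjusted p = 0.0397), a call that was lost in 7 of the 8 fits that leave out 1 array (adjusted p up to 0.0806). Among the licensing genes, Orc6, a subunit of the origin recognition complex, rose by 0.41, and Orc1, its largest subunit, had a log2 change of 0.29 (limma adjusted p = 0.0105) against control cells that lay below the background. The other probe set of Orc1 measured 4.83 to 5.12 in treated cells, above the background, and 3.40 to 3.59 in control cells, below it, so the size of either rise is not exact. Cdt1, the partner of CDC6 in loading, had a log2 change of -0.02 (95% interval -0.24 to 0.19).

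Some helicase genes were called higher and others were not called, and differences between subunits were not tested. Of the 6 MCM2-7 subunit genes, 4 rose: Mcm5 by 0.61, Mcm7 by 0.58, Mcm6 by 0.35 and Mcm4 by 0.33 on the log2 scale. The remaining subunit genes, Mcm2 and Mcm3, had log2 changes of -0.20 (95% interval -0.39 to -0.01, limma adjusted p = 0.0882) and -0.28 (95% interval -0.90 to 0.34). Mcm3 measured 5.09, 6.65, 6.56 and 6.33 in treated cells, against 6.12, 6.63, 6.32 and 6.67 in control cells, so that only treated replicate 1 lay below the controls. Its other probe set gave 0.19 and was not called either. Mcm2 passed when control replicate 3 was left out (-0.28, limma adjusted p = 0.005594), while Mcm6 was lost without control replicate 1 or any of treated replicates 2, 3 and 4 (adjusted p up to 0.07556). Among the genes that activate the helicase, Cdc45 rose by 0.64, Gins1 by 0.55 and Mcm10 by 0.43, whereas Gins2, a second GINS subunit, had a log2 change of -0.24 (95% interval -0.48 to -0.0034, limma adjusted p = 0.108).

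At the fork, the largest rises were in Pole, Fen1 and Rpa2. Pole, which encodes the catalytic subunit of the leading-strand polymerase, measured 6.90, 6.96, 6.99 and 7.13 in treated cells, against 6.22, 6.38, 5.51 and 6.19 in control cells (log2 change 0.92, SE 0.15, limma adjusted p = 0.000362). Fen1, whose nuclease trims Okazaki fragments, measured 7.48, 7.85, 7.92 and 7.78 in treated cells, against 6.85, 7.07, 6.75 and 6.95 in control cells (log2 change 0.85, SE 0.10, limma adjusted p = 2.86e-05). Rpa2, a subunit of the protein that coats single strands, measured 7.03, 6.88, 7.08 and 7.01 in treated cells, against 6.28, 6.27, 6.29 and 6.21 in control cells (log2 change 0.74, SE 0.068, limma adjusted p = 2.74e-06). None of the 3 genes had a treated array as low as its highest control array, although the other probe set of Rpa2 gave 0.27 (SE 0.33, adjusted p = 0.634). Pcna, the sliding clamp, rose by 0.64. Slbp, which encodes the binding protein of histone mRNA, rose by 0.56, while Chaf1b, a chromatin assembly subunit, had a log2 change of 0.01.

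Rfc4 and Prim1 were lower. Rfc4, a small subunit of the RFC loader, measured 7.74, 7.86, 7.98 and 7.87 in treated cells, against 8.36, 8.35, 8.66 and 8.54 in control cells (log2 change -0.61, SE 0.088, limma adjusted p = 0.000104). Prim1, the catalytic primase subunit that lays down RNA primers, measured 8.51, 8.32, 8.29 and 8.19 in treated cells, against 8.56, 8.58, 9.02 and 8.88 in control cells (log2 change -0.43, SE 0.11, limma adjusted p = 0.00816). In both genes all treated arrays were below all control arrays, and their other probe sets fell as well (-0.63 for Rfc4 and -0.53 for Prim1). The other 4 RFC genes were not called, with log2 changes from -0.10 for Rfc2 to 0.25 for Rfc1, whose other probe set rose by 0.42 (adjusted p = 0.033). Pold1 (0.20) and Lig1 (0.09), which encode the lagging-strand polymerase and the ligase that joins its fragments, were not called either.

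Of the 4 nucleotide supply members, 2 were higher, 1 was lower and 1 was not called. Rrm2, the regulated subunit of ribonucleotide reductase, measured 9.82, 10.03, 9.99 and 10.01 in treated cells, against 9.27, 9.14, 9.08 and 9.10 in control cells (log2 change 0.81, SE 0.075, limma adjusted p = 2.55e-06). Rrm1, the large subunit, rose by 0.49, but its other probe set gave 0.07 (adjusted p = 0.932) and the mean of both gave 0.28 (adjusted p = 0.3103). Tk1, which salvages thymidine, measured 6.95, 6.70, 6.93 and 6.85 in treated cells, against 7.67, 7.78, 7.74 and 7.92 in control cells. It was lower in every treated array, by 0.92 on the log2 scale (log2 change -0.92, SE 0.082, limma adjusted p = 1.91e-06), the largest fall among the members. Tyms, which makes thymidylate, had a log2 change of 0.26 (95% interval 5e-04 to 0.51, limma adjusted p = 0.112). The plot of single arrays shows how narrow the spread was beside these differences.

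**Figure D2:**
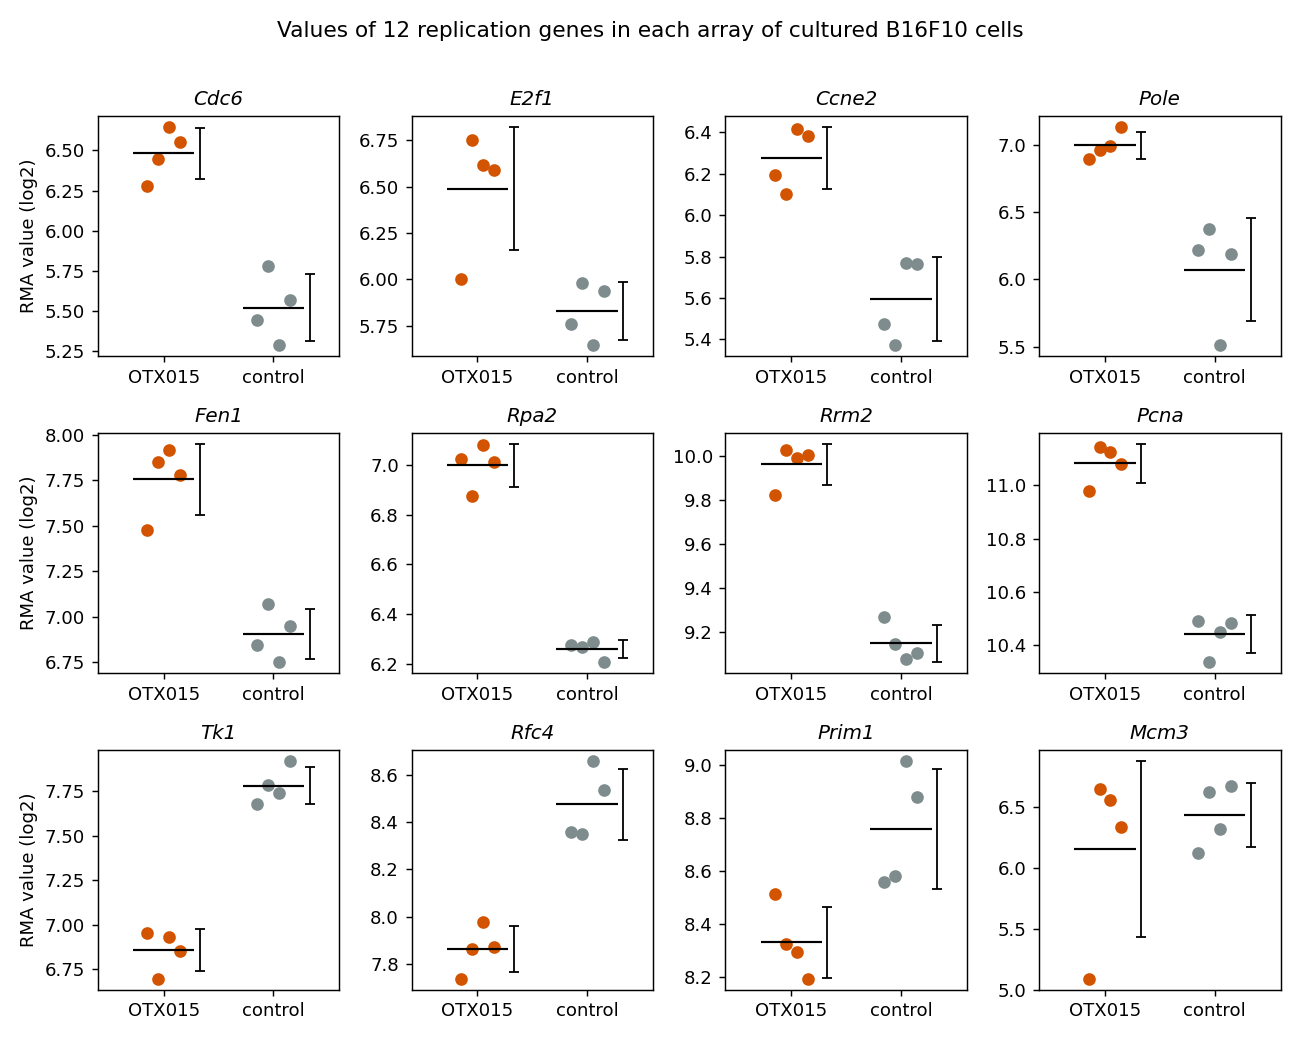
RMA value (log2, y axis, a scale of its own in each panel) of 12 members in each array of OTX015-treated (left) and control (right) B16F10 cultures; points are arrays, lines means and bars beside them 1 SD (n = 4 each). The groups do not overlap for 11 of the 12 genes, and Mcm3 has 1 low treated array at 5.09.

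The calls in cells depended on where the spread was estimated. With all 6 groups in 1 fit, which adds the wider spread of tumours, 5 members were higher and 1 lower. The share of all genes called in that fit is not given, so the drop cannot be read as particular to the members. All 3 RNAs of a list kept in the nucleus moved with the treatment: Malat1 rose by 2.30, Neat1 by 1.23 and Kcnq1ot1 by 0.49, and their mean was 7.25 to 7.77 in treated and 6.04 to 6.25 in control cells. Their part in the changes of the members was not tested.

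Genes of the same processes outside the list also moved in both directions in cells. Of 15 further origin and helicase genes, 5 were higher and 2 lower (median log2 change 0.06), among them Topbp1 (0.74), which helps to fire origins, Mcm9 (0.99), Ticrr (0.46), Gmnn (0.34), the inhibitor of CDT1, Mtbp (-1.05) and Orc5 (-0.48). Of 25 further polymerase, clamp and fork genes, 12 were higher and 5 lower (median 0.19), with Pola2 at 0.93, Asf1b at 0.71, Rnaseh2c at 0.86 and the checkpoint mediator gene Clspn at 1.02. The falls there included Rnaseh2b (-0.58), Pold2 (-0.44), Rpa3 (-0.54) and Pold3 (-0.36). Subunits of 1 complex parted here: Rnaseh2c rose and Rnaseh2b fell, and Rpa2 rose on the probe set used while Rpa3 fell. The other probe set of Rpa2 was not called, as given above.

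Nucleotide supply genes outside the list fell more often than they rose in cells, 7 lower and 4 higher of 16 (median -0.17). Dctd, whose enzyme turns dCMP into dUMP for thymidylate synthesis, measured 3.30 to 3.75 in treated and 5.84 to 6.33 in control cells, without overlap and below the background in all treated arrays, so that its log2 change is not an exact size; it was -2.58 (limma adjusted p = 1.13e-08). Shmt2 (-1.17), a mitochondrial one-carbon enzyme gene, Dtymk (-0.80), the thymidylate kinase gene, and Dut (-0.49), the dUTPase gene, fell too. The deoxycytidine kinase gene Dck rose by 0.82, the purine synthesis gene Gart by 0.67, Umps by 0.49 and the reductase subunit gene Rrm2b by 0.47.

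The regulators of G1/S did not move as a block. Of 32 genes, 9 were higher and 12 lower (median 0.03). Cdkn1a, which encodes the kinase inhibitor p21, rose by 1.55 (limma adjusted p = 1.74e-08), Cdkn2c by 0.33, Ccnd3 by 1.06, Cdk2 by 0.42 and Lin54, a subunit gene of the DREAM complex, by 0.47. The repressor genes E2f7 and E2f8 rose by 0.50 and 0.35. Ccnd1, the cyclin D1 gene, fell by 1.66, Myc by 1.24, Lin9 by 1.12, Skp2 by 0.99 and Cdkn1b by 0.47, and E2f5 and E2f6 fell by 0.34 and 0.41.

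Checkpoint and mitosis genes gave 2 further pictures. Of 14 replication checkpoint genes, 2 were higher (Atm 0.56 and Atr 0.47, the kinases at the head of the pathway) and 6 lower, among them Brca1 (-1.69), a repair and checkpoint gene, Rad1 (-1.35) and Hus1 (-0.60), subunits of the checkpoint clamp, and Usp1 (-0.39). Of 28 mitosis genes, 12 were higher and 2 lower (median 0.26), with Cenpf at 0.93, Cenpe at 0.77, Ttk at 0.67 and Prc1 at 0.47, and with Ccnb2 at -0.83 and Cdca8 at -0.59. Mki67, a common marker of cycling cells, measured 8.89, 8.85, 8.99 and 9.13 in treated cells, against 8.31, 8.89, 7.64 and 8.64 in control cells (log2 change 0.60, limma adjusted p = 0.0385). Its groups overlapped by 1 control culture.

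In tumours, single arrays stood apart before any drug was compared. On the deposited values OTX015-treated tumour 4 was the lowest of its group for 34 of the 35 members, and the mean of the members was 6.10 there, against 6.81 to 7.38 in the other 9 treated tumours. Its mitosis genes were low as well (mean 5.69, against 6.86 to 7.34), its melanocyte markers were not (10.9, within the group's 10.5 to 11.1), and its values over all probe sets had the lowest spread of the group (SD 1.82, against 1.90 to 2.02). Control tumours 4 and 11 of that experiment were low too (6.67 and 6.56, against 6.93 to 7.43). The mitosis genes were low in control tumour 11 (mean 6.56) but not in control tumour 4 (7.10), against 6.82 to 7.45 in the other controls. Guadecitabine-treated tumours 3 and 6 had member means of 6.37 and 6.30, against 7.15 to 7.69 in the other 4 and 7.09 to 7.44 in their controls. Except for control tumour 4 (SD 1.93), the arrays named here also had the lowest spreads of their groups, as the plot of member means shows. In bulk tumours fewer cycling cells and less of these RNAs per cell cannot be told apart.

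**Figure D3:**
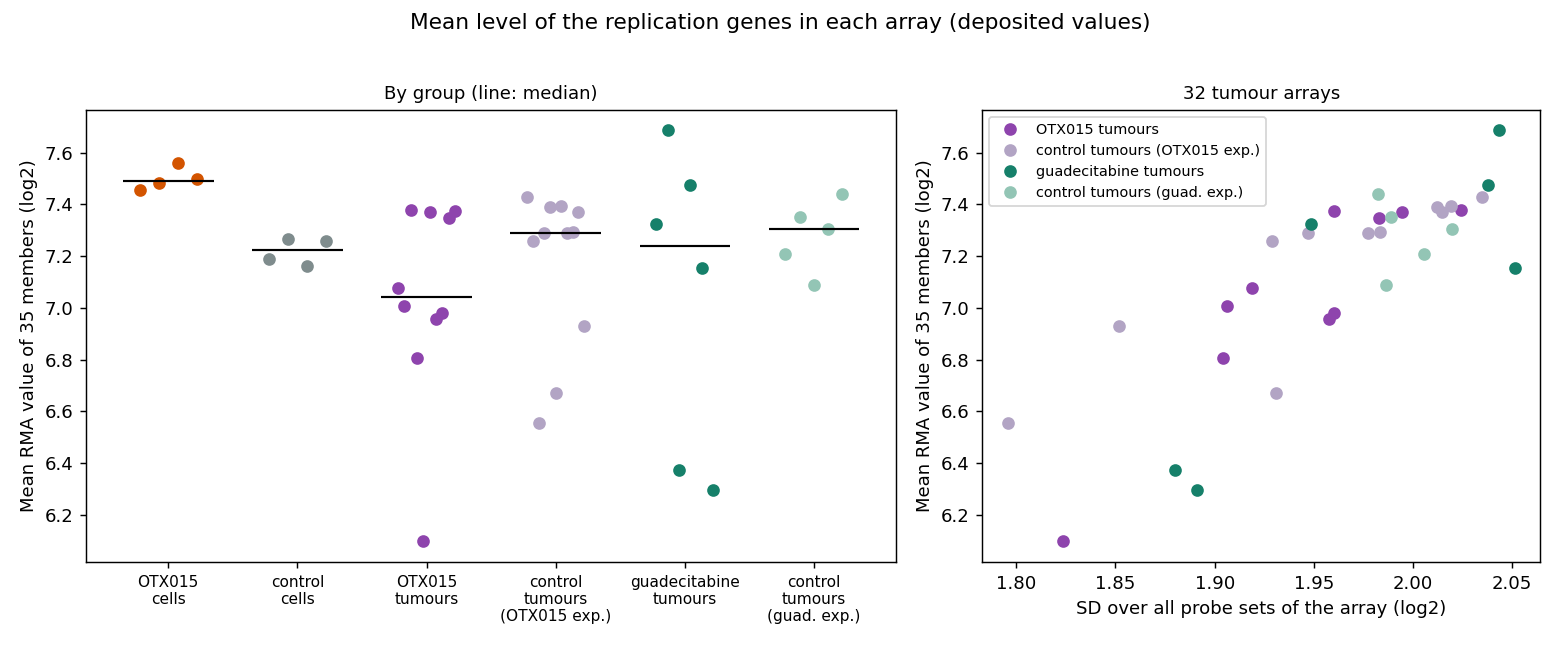
Mean RMA value (log2) of the 35 members in each array by group (left; points are arrays, lines medians) and against the SD over all probe sets of the array for the 32 tumour arrays (right). The lowest values are OTX015-treated tumour 4 at 6.10 and guadecitabine-treated tumours 6 and 3 at 6.30 and 6.37.

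OTX015 left most replication genes without a called change in tumours. Deposited values of the treated tumours lay lower over the whole array (mean 4.35 to 4.39) than those of their controls (4.55 to 4.60), so the arrays were quantile normalized before the fit. On the deposited values 215 genes were called higher and 9230 lower, against 1482 and 1281 after normalization. Of the 35 members 2 were higher, Orc1 and Gins2, and 0 lower, where 16.2% of all genes were called, 8.67% higher and 7.49% lower. At an unadjusted p under 0.05, 3 were higher and 0 lower, beside 2588 higher and 2342 lower of all 17097 genes. The median log2 change of the members was 0.07, against 0.0053 for all genes, and 27 of the 35 had a change above 0. On the deposited values that median was -0.16, so the direction of the group turned with the scaling. No member had all 10 treated tumours on 1 side of all 11 controls, which 0.825% of all genes did upward and 0.550% downward.

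Orc1, the origin-binding ATPase gene of the recognition complex, ranged from 5.10 through a median of 5.26 to 5.71 in treated tumours, against 4.34, 4.70 and 5.20 in control tumours. Of the treated tumours 9 were above every control, and the log2 change was 0.56 (SE 0.094, limma adjusted p = 0.000255). The rise was 0.32 (adjusted p = 0.003083) on the deposited values and 0.52 without treated tumour 4, still called. In that tumour Orc1 was the highest of its group while 31 of the other members were the lowest, on the normalized values. The other probe set of Orc1 lay below the background in all 21 tumours, at 3.14 to 4.21 in treated and 3.17 to 3.71 in control tumours, so the call rests on 1 probe set. Whether that probe set reports Orc1 alone was not tested.

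Gins2, a subunit gene of the GINS complex that joins the helicase at firing, ranged from 5.13 through 5.89 to 6.54 in treated tumours, against 4.98, 5.52 and 5.70 in control tumours. All treated tumours but number 4 were above every control, as the plot of both genes shows, and the log2 change was 0.47 (SE 0.12, limma adjusted p = 0.0102). Without tumour 4 it was 0.56 (adjusted p = 0.0003781). On the deposited values the call was lost (0.24, adjusted p = 0.1529), and the other probe set gave 0.31 (adjusted p = 0.165). Its partner Gins1 had a log2 change of 0.10 (95% interval -0.22 to 0.41).

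**Figure D4:**
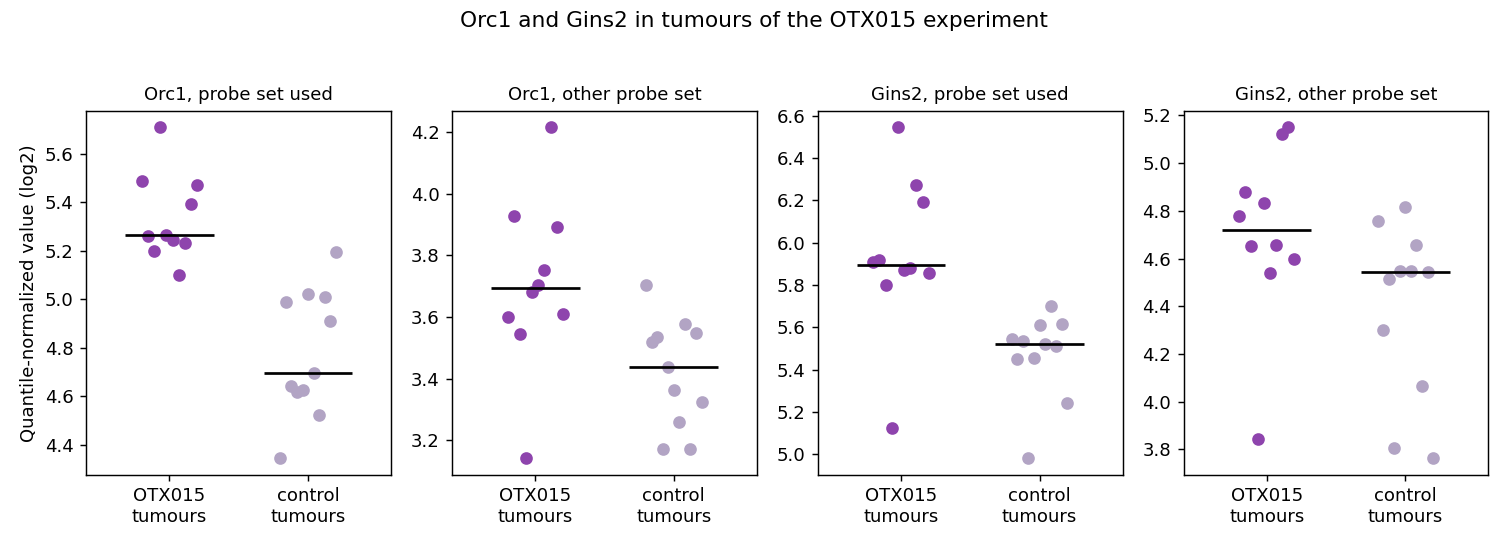
Quantile-normalized value (log2, y axis, a scale of its own in each panel) of both probe sets of Orc1 and Gins2 in the 10 OTX015-treated (left) and 11 control (right) tumours; points are tumours and lines medians. On the probe sets used, 9 of the 10 treated tumours lie above every control for each gene, and the exception of Gins2 is treated tumour 4 at 5.13.

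The genes that moved most in culture were not called in tumours. E2f1 had a log2 change of 0.03 (95% interval -0.11 to 0.17), Pole 0.06 (-0.15 to 0.27), Tk1 0.04 (-0.25 to 0.34) and Mcm5 -0.02 (-0.36 to 0.31). Wider intervals stood at Ccne2 (-0.07, from -0.71 to 0.56) and Cdc6 (0.18, from -0.36 to 0.72). Rrm2 (0.21, from -0.03 to 0.46), Pcna (0.16, from -0.01 to 0.33) and Rfc2 (0.14, from 0.02 to 0.26, adjusted p = 0.0992) were next to the called genes in p. Rfc2, a loader subunit gene, depended on its probe set: the next one rose by 0.60 (adjusted p = 4.91e-05), with 5.90, 6.30 and 6.41 as its lowest, median and highest value in treated tumours, against 5.31, 5.77 and 6.03 in control tumours. The third probe set of Rfc2, dimmer than the background, rose by 0.35 (adjusted p = 0.0406).

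Outside the list, E2f4 (0.69, limma adjusted p = 0.000186), an E2F gene whose protein acts mainly as a repressor with pocket proteins, and E2f2 (0.33, adjusted p = 0.00529) rose among the 32 G1/S regulators in OTX015-treated tumours. The checkpoint kinase gene Wee1 rose by 0.30, and 0 of the origin, fork, nucleotide supply and mitosis genes were called in either direction. Mki67 had a log2 change of -0.07 (95% interval -0.38 to 0.23). Of the 13 macrophage and monocyte markers 9 were lower (median -1.05), and their mean on the normalized values was 4.48 to 6.28 in treated and 5.74 to 7.65 in control tumours, so these markers moved with the treatment. Their part in the values of Orc1 and Gins2 was not tested.

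The change with OTX015 differed between tumours and cells for 12 members. For 10 of them the change in tumours was lower than that in cells, and for 2 it was higher, where 32.7% of all genes were called, 14.6% lower and 18.0% higher. The largest negative differences were Pole (-0.87, SE 0.20, limma adjusted p = 0.00082), Rpa2 (-0.82, adjusted p = 0.047), Fen1 (-0.77, adjusted p = 0.0333), Rrm2 (-0.67, adjusted p = 0.00947), Slbp (-0.66, adjusted p = 0.000497) and E2f1 (-0.63, adjusted p = 0.000935). Tk1 (0.94, SE 0.24, adjusted p = 0.00263) and Gins2 (0.64, adjusted p = 0.0278) were the positive ones. All 10 genes with a negative difference had a called rise in cells and no call in tumours. Tk1 had a called fall in cells and no call in tumours, and Gins2 a called rise in tumours and no call in cells. Rpa2 kept its call in 14 of 38 alternatives, and with each array centred on its median 1 member was higher and 2 were lower. No share of all genes is given for the median-centred counts, so they cannot be read as particular to the members. Cells and tumours also differed in how the drug was given and in cell mixture, which cannot be told apart from the setting. The 3 nuclear-retained RNAs were lower in this difference as well (Malat1 -2.04, Neat1 -1.43 and Kcnq1ot1 -0.50), and their part in it was not tested.

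With guadecitabine no member was called, and no gene at all passed (0 of 17097, 0%). By unadjusted p under 0.05, 673 genes were higher and 340 lower, and of the members 0 were higher and 1 lower. No member had its groups apart without overlap, which 0.521% of all genes did upward and 0.129% downward. The median log2 change of the members was -0.26, against 0.04 for all genes, and 30 of the 35 were below 0. That median rested on tumours 3 and 6: without these 2 arrays, which had the lowest spread over all probe sets in the treated group, it was 0.12. Leaving out 1 array at a time gave -0.38 to -0.09. The median SD of the members was 0.62 in treated and 0.22 in control tumours.

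The heat map of single tumours shows the same arrays across nearly all roles. Ccne2 measured 5.87, 6.49, 3.62, 6.02, 4.78 and 3.62 in treated tumours, against 5.54, 5.93, 5.32, 5.30 and 6.16 in control tumours. Cdc6 measured 5.84, 6.57, 4.27, 6.11, 4.90 and 4.12 in treated tumours, against 5.78, 6.02, 5.67, 5.85 and 6.22 in control tumours. In both genes treated tumours 3, 5 and 6 were below all controls, tumours 3 and 6 by more than tumour 5, and treated tumour 2 was above them, a choice of examples made after the values were seen. Tumour 2 was the highest treated array for 23 of the 35 members.

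**Figure D5:**
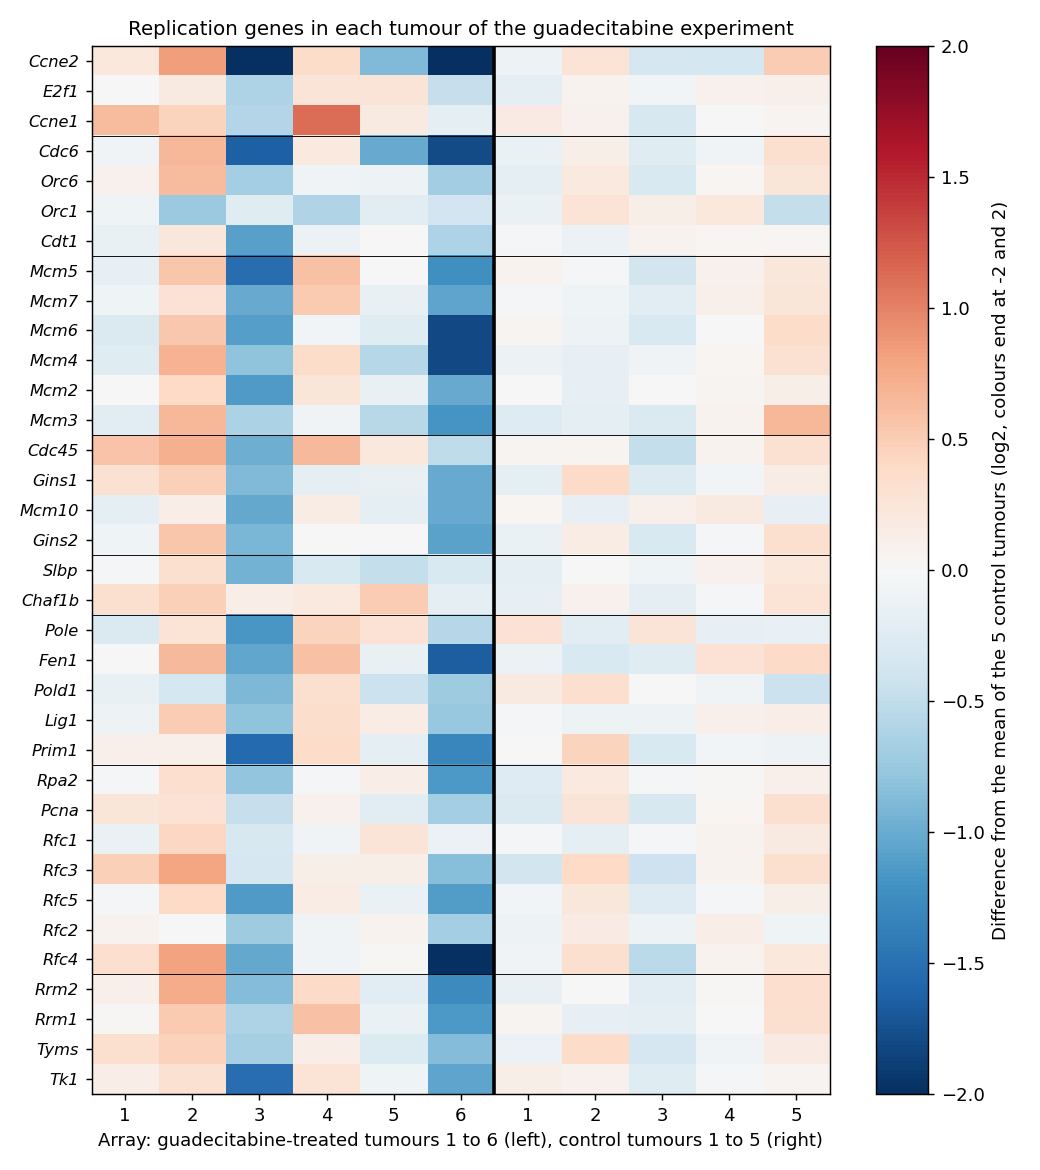
Difference of each member (rows, grouped by role) from the mean of the 5 control tumours (log2, colour) in guadecitabine-treated tumours 1 to 6 (left of the line) and control tumours 1 to 5 (right). Treated tumours 3 and 6 are low for most members, and tumour 2 is the highest treated array for 23 of 35.

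The members with the smallest p were Orc1, Pold1, Chaf1b and Mcm10. Orc1 measured 5.11, 4.44, 4.94, 4.58, 4.96 and 4.80 in treated tumours, against 5.05, 5.46, 5.30, 5.40 and 4.72 in control tumours (log2 change -0.38, 95% interval -0.72 to -0.04, limma adjusted p = 0.808). Its lowest treated array was tumour 2, the one in which most other members were highest. Pold1 had a log2 change of -0.37 (95% interval -0.82 to 0.07), Chaf1b 0.24 (-0.05 to 0.53) and Mcm10 -0.35 (-0.84 to 0.14), with adjusted p from 0.831 to 0.84. Wider intervals stood at Mcm6 (-1.24 to 0.26) and Cdc6 (-1.51 to 0.29).

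Markers moved with the same arrays. In treated tumours 3 and 6 the mitosis genes averaged 6.35 and 6.50, against 7.13 to 7.74 in the other 4. The macrophage and monocyte markers averaged 4.47 and 5.11, against 5.35 to 6.23, and the melanocyte markers 10.7 and 10.7, against 10.9 to 11.3. Their spread over all probe sets was 1.88 and 1.89, against 1.95 to 2.05. The nuclear-retained RNAs parted in these tumours, with means of 5.99 in tumour 3 and 8.35 in tumour 6. They averaged 5.29 (tumour 2) to 7.70 in the other 4. Which of these goes with the low members was not tested.

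OTX015 and guadecitabine differed in tumours for 1 member, Orc1, where 3.54% of all genes were called, 1.39% higher and 2.15% lower. Its change with OTX015 exceeded that with guadecitabine by 0.86 (SE 0.17, limma adjusted p = 0.00294), from opposite signs in the 2 experiments, on the same single probe set. Each drug had its own controls, and dose, route and experiment cannot be told apart from the drug. Among the genes outside the list Pold3, a subunit gene of the lagging-strand polymerase, differed by 0.76 (adjusted p = 0.0395).

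Without any drug, tumours and cultures differed in some replication genes, but the count turned with the scaling. In control tumours of the OTX015 experiment 3 members were higher and 6 lower than in control cells, beside 49.7% of all genes called, 20.5% higher and 29.3% lower. All its tumours lay above all cells for 1 member and below them for 4, beside 10.2% and 20.1% of all genes. In control tumours of the guadecitabine experiment 8 were higher and 6 lower, beside 38.1% of all genes called, 9.91% higher and 28.2% lower. There 5 members lay above without overlap and 4 below, beside 8.03% and 25.1%. After quantile normalization the counts were 18 higher and 3 lower in the first and 17 and 2 in the second. The shares of all genes above are for the deposited values, and none is given for the normalized counts. On the deposited values genes above the background had a median log2 change of -0.28 in the first and -0.25 in the second. Both comparisons use the same 4 control cultures. Under deposited, median-centred and quantile-normalized values, Orc1 was higher in both experiments, with tumour means of 4.88 and 5.19 against 4.29 in cells. Rfc4 (7.87 and 7.64 against 8.48) and Slbp (8.51 and 8.46 against 8.98) were lower in both under each of these scalings. The Orc1 values of control cells lay below the background, so the size of its rise is not exact. Its other probe set had medians of 3.57 and 3.55 in control tumours against 3.54 in control cells, all below the background. Slbp depended on its probe set, since a dimmer one measured 6.28 to 8.54 in control tumours of the guadecitabine experiment, against 3.64 to 3.77, below the background, in control cells. The macrophage and monocyte markers, all 13 higher in the tumours of both experiments, moved with this contrast. The nuclear-retained RNAs did so unequally: their mean was 5.43 in control tumours of the OTX015 experiment and 7.91 in those of the guadecitabine experiment, against 6.14 in control cells. Neat1 had a log2 change of -2.08 in the OTX015 experiment, and Kcnq1ot1 one of 2.93 in the guadecitabine experiment. Their part in the members' values was not tested.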

How the data were processed

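RNA from 40 samples was measured on Affymetrix 3′ arrays, 1 array each, from 500 ng of total RNA per the labels' protocols. The deposited log2 values of 45141 probe sets were made by the authors: the submitters' processing notes name RMA and Transcriptome Analysis Console; versions, and which arrays were processed together, are not given in the sources used here. Arrays give no read depth, so their number limits the precision.

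Probe sets were named by GEO's platform annotation, updated through RefSeq: 28898 named 1 gene, 551 several and 15692 none here. The limma package (3.58.1, under R 4.3.3) fitted each comparison on its own arrays by lmFit and eBayes, two-sided, adjusted over 17097 genes. OTX015-treated tumours and both tests of a difference used quantile normalization over all probe sets. The fits were tested on simulated data.

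Genes were named by rule: the members with the largest called changes, or the 4 smallest p, and up to 4 called genes a direction of each related list, with kinase inhibitor and E2F genes, Mki67 and drug check genes open to naming throughout. The members and lists were chosen with earlier results of these data known.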

Additional observations from a re-analysis of the deposited data

Results flagged for a closer look

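Of 175 sets of values (35 members in 5 groups of 4 to 10 arrays), 16 held a value whose gap to the nearest other passed Dixon's 95% limit, where chance flags about 1 in 20 groups. Of these, 13 were low values of OTX015-treated tumour 4 on the quantile-normalized scale: Mcm5 5.71, Mcm6 8.20, Mcm7 6.90, Cdt1 7.97, Gins1 5.04, Gins2 5.13, Orc6 5.29, Rfc4 6.50, Rfc5 6.52, Prim1 6.90, Rrm1 8.12, Tk1 6.52 and Fen1 5.82. They span licensing, helicase, fork and nucleotide genes and come from 1 array, so they are not separate events. In cultures the values were Rrm2 at 9.82 in OTX015-treated replicate 1 (low), Lig1 at 7.73 in OTX015-treated replicate 4 (low) and Ccne1 at 5.93 in control replicate 4 (high, in a group that spans only 5.89 to 5.93). The 11 control tumours of the OTX015 experiment were not tested, since the limits used end at 10 arrays. Guadecitabine-treated tumours held 0 flagged values, but a gap to the nearest value cannot flag 2 low arrays that lie close together.

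The effect of OTX015 in tumours minus that in cells passed the test of the difference for 12 members: Pole (-0.87), Rpa2 (-0.82), Fen1 (-0.77), Rrm2 (-0.67), Slbp (-0.66), E2f1 (-0.63), Mcm7 (-0.61), Cdc45 (-0.57), Pcna (-0.53), Rrm1 (-0.49), Gins2 (0.64) and Tk1 (0.94). The effect of OTX015 minus that of guadecitabine in tumours passed for Orc1 (0.86). Of the 35 members these are 12 and 1, beside 32.7% and 3.54% of all genes.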

How the results depend on the processing

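The members' counts (higher, lower) held to within 1.5 times in most alternatives. No share of all genes is given beside the counts of the alternatives. OTX015 in cells gave 5 and 1 with all 6 groups in 1 fit and 5 lower with array weights, OTX015 in tumours 1 higher on deposited values, and guadecitabine 0 and 0 in every alternative. For the tumour minus cell difference, centring each array on its median gave 1 and 2, deposited values 0 higher, all 6 groups in 1 fit 1 and 5, array weights 6 and 16, and leaving out the 3 arrays of lowest spread (chosen after seeing the data, as was leaving out the 2 guadecitabine arrays) 5 higher. For OTX015 minus guadecitabine, deposited values gave 1 lower and the mean of all probe sets 2 higher. Control tumours of the OTX015 experiment against control cells gave 1 higher with median centring, 18 and 3 with quantile normalization, 6 higher over averaged probe sets, 1 and 3 with all 6 groups in 1 fit, 10 higher with array weights and 7 higher without the 3 arrays. Control tumours of the guadecitabine experiment gave 5 higher with median centring, 17 and 2 with quantile normalization and 3 and 1 with all 6 groups in 1 fit. Leaving out 1 array gave 18 to 20 higher and 3 to 4 lower in cells, 2 to 3 and 0 to 0 for OTX015 in tumours, 0 and 0 for guadecitabine, 1 to 4 and 6 to 11 for tumours minus cells, 1 to 2 and 0 for OTX015 minus guadecitabine, and 1 to 7 and 3 to 7, then 6 to 9 and 4 to 6, for the control tumours of the OTX015 and guadecitabine experiments. With the replicate number as a block, the counts were 21 and 3, 2 and 0, 0 and 0, 3 and 14, 1 and 0, 2 and 5, and 6 and 5 in the same order. The labels name no pairing by number. Correlations of same-numbered arrays ran from -0.129 to 0.24 in cells, -0.635 to 0.497 in OTX015 tumours and -0.439 to -0.065 in guadecitabine tumours. In cells 2 of 4 treated cultures correlated best with their own number, and in the tumours 0 of 10 and 0 of 5 did so. The 4 pairs of cultures are too few to decide whether the numbers pair them. The only call of a member that turned sign in these alternatives was Slbp in control tumours of the guadecitabine experiment over averaged probe sets (1.13). Values that were not called and were called with the other sign were Orc1 in tumours minus cells over averaged probe sets (-0.35, adjusted p = 0.00317) and Tk1 in control tumours of the OTX015 experiment with quantile normalization (0.30). The cause was not tested. Signal near the background limits Orc1 in cells.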

Other observations

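The probe sets of Orc1 differed in the arrays that stood apart. On the deposited values the brightest was highest in OTX015-treated tumour 4 (5.41) and lowest in guadecitabine-treated tumour 2 (4.44). The dimmer one was lowest in OTX015-treated tumour 4 (3.12) and in guadecitabine-treated tumour 6 (2.98), below the background.

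Hexim1, which rises when BET proteins are blocked in many cells, rose by 2.25 in OTX015-treated cells and had a log2 change of 0.12 (95% interval -0.06 to 0.30) in OTX015-treated tumours. Myc fell by 1.24 in cells and had a log2 change of -0.14 (95% interval -0.53 to 0.25) in tumours. Cdkn1a had a rise of 1.55 in cells, -0.21 (95% interval -0.58 to 0.17) in OTX015-treated tumours and 0.76 (95% interval 0.36 to 1.16, unadjusted p = 0.00138, not called) in guadecitabine-treated tumours.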
